A study of Bos taurus with 6 samples.

Results

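The genes described here are 9 interferon signalling and response genes of cattle, STAT2, IRF9, IRF1, IRF7, IFIH1, MX1, MX2, ISG15 and IFI6. They were taken by symbol from the gene table of an RNA-seq experiment on bovine fetal fibroblasts (bEFs), and all 9 were found among its 17663 genes. FT cells came from 3 fetuses that carried fat-1, a fatty acid desaturase gene of Caenorhabditis elegans, and WT cells came from 3 wild-type fetuses without it. All fetuses were 50 to 60 days old, and the bEFs were primary cultures made from soft tissue of the trunk. Each fetus gave 1 library of poly(A) RNA, named FT_1 to FT_3 and WT_1 to WT_3. The WT fetuses were of the Luxi breed. The breed of the FT fetuses and the promoter that drives the transgene are not given in the sources used here, so breed and transgene cannot be told apart, and the transgene itself was not analysed here. No interferon, virus or other stimulus is named for either group.

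Cells release interferons when their sensors meet foreign nucleic acid. Type I interferon bound to its receptor activates the kinases JAK1 and TYK2, which phosphorylate STAT2. It joins IRF9 in a complex, ISGF3, that switches on a large set of antiviral genes, and fibroblasts are a classic cell type for this response.

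Depth, as the total count, was 63366834, 48167642 and 54204446 in FT_1 to FT_3 and 69777641, 51310741 and 54271927 in WT_1 to WT_3. FT_1 stood apart from the other libraries of its group. The biological coefficient of variation, the spread of a gene's level between a pair of libraries beyond counting noise, was 56.9% between FT_1 and FT_2 and 57.6% between FT_1 and FT_3. It was 8.23% between FT_2 and FT_3 and 9.99% to 13.4% between WT libraries. Of the 13482 genes that passed edgeR's filter on low counts and were tested, 22.2% differed by over 1 on the log2 scale between FT_1 and the mean of FT_2 and FT_3. Among the members this held for 3 of 8, IFI6, ISG15 and IFIH1, so the tests of the members other than MX2 and ISG15, and the counts of called genes in the lists below, are given with and without FT_1.

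Fibroblast and epithelial marker genes also set FT_1 apart. In FPKM (fragments scaled by gene length and library total), the sum over 9 fibroblast markers was 6776 in FT_1, against 16989 in FT_2, 16716 in FT_3 and 17210 to 17743 in WT cells. The most abundant of them was DCN in FT_1 and FT_2 and VIM in the other 4 libraries, and all 9 were detected in every library. FT_1 was the lowest library for 7 of the 9 and the highest for PDGFRA (217.73, against 86.99 to 166.38) and THY1 (413.27, against 330.0 to 368.5). The close sums of FT_2, FT_3 and WT cells cover unequal parts, as VIM was at 3850.19 and 4170.95 in FT_2 and FT_3 and at 7311.82 to 8177.52 in WT cells, while DCN and LUM were higher in FT_2 and FT_3 than in any WT library. The sum over 7 epithelial markers was 438, 12.8 and 11.9 in FT_1 to FT_3 and 10.1, 7.83 and 13.9 in the WT libraries. KRT5 was the most abundant of them in FT_1, with 171.54, 2.57 and 1.63 in FT_1 to FT_3. CDH1 was the most abundant in the other 5 libraries and made up nearly all of the WT sums, with 36.32, 7.11 and 8.41 in FT_1 to FT_3 and 10.03, 7.83 and 13.86 in WT_1 to WT_3. The genes EPCAM, KRT8, KRT18, KRT5 and KRT14 were at 0 in every WT library. The sum over 10 leukocyte markers was 6.89, 3.18 and 2.28 in FT_1 to FT_3 and 8.22, 7.16 and 8.23 in WT_1 to WT_3. CD14 was the most abundant in 5 libraries and LCP1 in FT_1, at 3.42 there and 0.03 to 0.20 elsewhere. Of the markers that define lymphocytes, CD3E and CD3D were at 0 in 5 of the 6 libraries and did not exceed 0.05 in WT_3. CD163, a macrophage scavenger receptor gene, lay at 2.69 to 3.14 in WT cells and at 0.18, 0 and 0.03 in FT cells. The 6 endothelial markers summed to 1.03, 0.47 and 0.53 in FT cells and to 1.56, 1.0 and 1.2 in WT cells, with KDR at 0 in all FT libraries. PECAM1 was the most abundant in WT cells and VWF in FT_2 and FT_3, while PECAM1 and TEK were equal in FT_1, at 0.38. The part of these cell types in the results below was not tested. In bulk RNA, fewer cells of a type and less RNA per cell cannot be told apart.

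**Figure D1:**
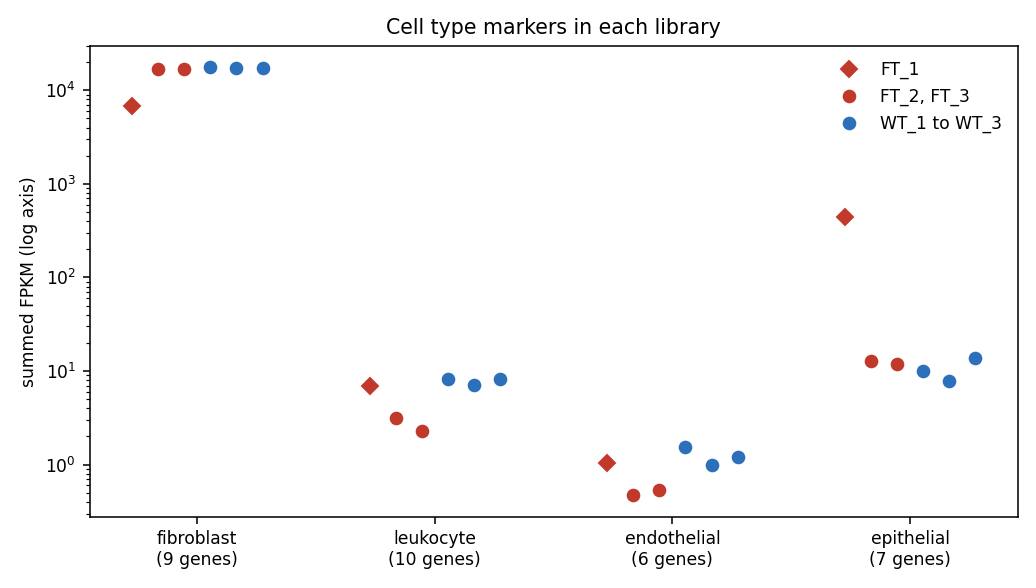
Summed FPKM of 4 lists of cell type markers in each of the 6 libraries, on a log axis. FT_1 (diamond) had 438 for the epithelial markers and 6776 for the fibroblast markers, away from the other 5 libraries in both lists.

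Levels of the members spanned a wide range. In WT cells the mean FPKM was highest for IRF1, at 21.2 ± 1.41 (SD, n = 3), followed by IFI6 (17.4 ± 1.76) and STAT2 (16.5 ± 1.31), whose values overlapped. IRF9 (9.39 ± 0.448), MX1 (4.40 ± 0.666) and IFIH1 (2.43 ± 0.305) came next, each apart from its neighbours in the order. IRF7 (1.07 ± 0.165) and ISG15 (0.930 ± 0.0265) overlapped, and MX2 was close to 0. In FT cells the mean of IRF7, 6.92 ± 1.94, put it above MX1 (2.77 ± 0.354), and STAT2 lay above IFI6. From IRF1 down through STAT2, IFI6 and IRF9 to IRF7, each gene overlapped with the next in FT cells.

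**Figure D2:**
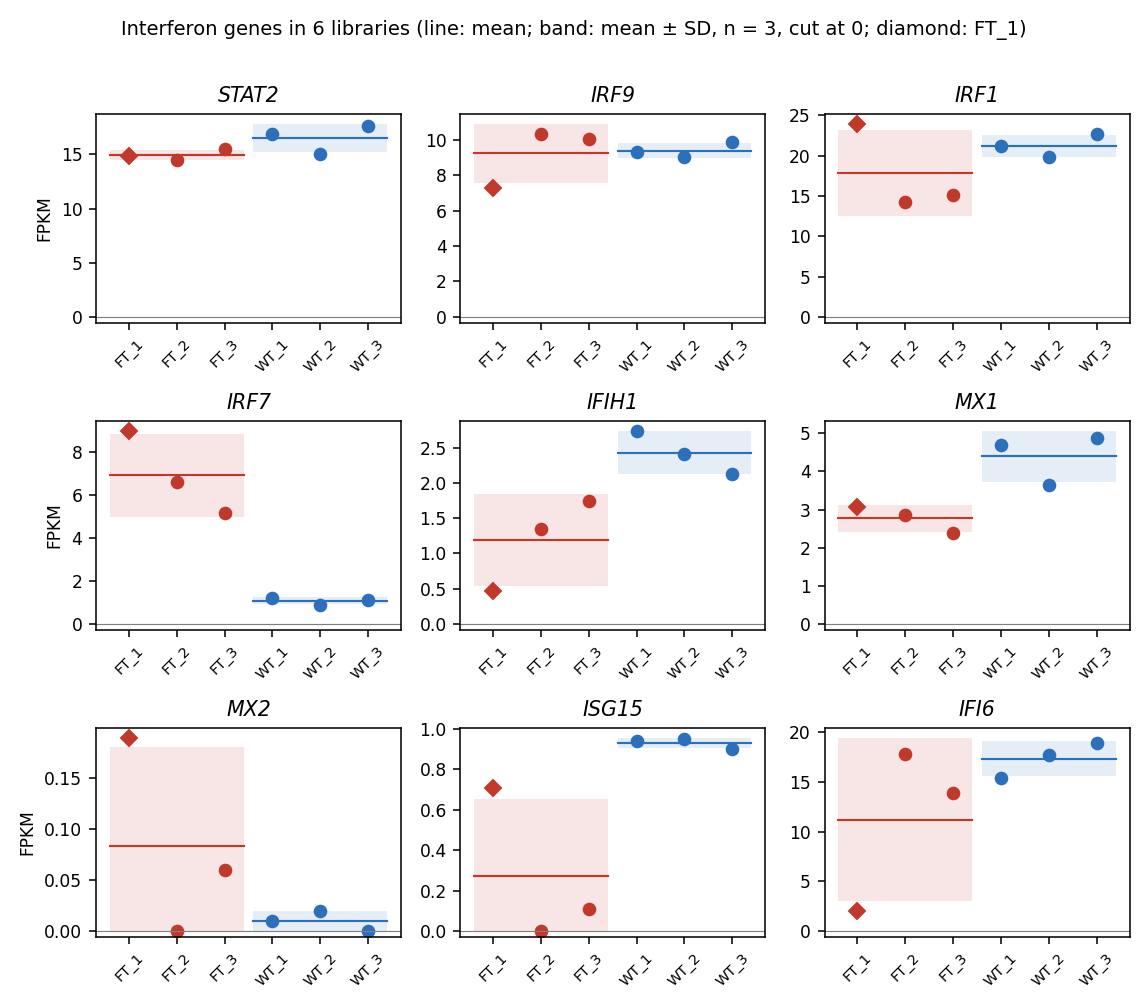
FPKM of the 9 genes in each library, with FT libraries in red, WT libraries in blue, the group mean as a line and the SD (n = 3) as a band cut at 0. The FT values of IRF7 (5.17 to 9.0) lie above all WT values (0.89 to 1.21), while those of IFIH1, MX1 and ISG15 lie below all WT values.

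The first group of members are the factors that carry the signal to the genome. STAT2 (ENSBTAG00000004380, chromosome 5, 56997911 to 57009477 in the authors' table, whose build is not given in the sources used here) encodes the STAT protein particular to ISGF3. Its FPKM was 14.88, 14.47 and 15.46 in FT_1 to FT_3 and 16.87, 15.06 and 17.61 in WT_1 to WT_3. The groups overlapped, since WT_2 lay below FT_3, and no FT library stood out. edgeR's quasi-likelihood test on the counts gave a log2 fold change of 0.01 (standard error, SE, 0.09, Benjamini-Hochberg adjusted p = 0.911), with a 95% interval from -0.20 to 0.23. A gene was called at an adjusted p under 0.05, which STAT2 did not reach. Without FT_1 it was 0.03 (SE 0.09). The sign of so small a value depended on scaling, as total-count scaling gave -0.14.

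IRF9 (ENSBTAG00000005816, chromosome 10, 20986934 to 20992851) encodes the DNA-binding part of ISGF3. Its FPKM was 7.29, 10.32 and 10.06 in FT_1 to FT_3, against 9.29, 9.0 and 9.88 in the WT libraries. FT_1 was the lowest of all 6 libraries and FT_2 and FT_3 were the highest, so the groups overlapped only through FT_1. FT over WT gave a log2 fold change of 0.13 (SE 0.16, 95% interval -0.25 to 0.52, adjusted p = 0.534 in edgeR's quasi-likelihood test). Without FT_1 the test called IRF9 higher, with 0.29 (SE 0.09, adjusted p = 0.0165 in edgeR). Total-count scaling of all 6 libraries turned the sign, at -0.02.

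IRF1 (ENSBTAG00000031231, chromosome 7, 21938614 to 21946679), a transcription factor best known as an early target of interferon gamma, reached an FPKM of 23.95 in FT_1, with 14.29 in FT_2 and 15.16 in FT_3. The WT values were 21.16, 19.81 and 22.62. FT_1 was thus the highest of the 6 libraries and the other FT libraries were the lowest. Over all libraries the log2 fold change was -0.10 (SE 0.20, 95% interval -0.59 to 0.39, adjusted p = 0.729 in edgeR). Without FT_1 the gene fell by 0.35 (SE 0.08, adjusted p = 0.00362 in edgeR).

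IRF7 (ENSBTAG00000047680, chromosome 29, 50695300 to 50698405) encodes the factor that amplifies the type I response by switching on interferon alpha genes, and was the member that differed most clearly. Its FPKM was 9.0, 6.59 and 5.17 in FT_1 to FT_3 and 1.21, 0.89 and 1.12 in WT_1 to WT_3, from counts of 1168, 650 and 575 against 172, 93 and 124. Every FT library lay above every WT library, and the lowest FT value, in FT_3, was still far above the highest WT value, in WT_1. IRF7 rose by 2.84 on the log2 scale in FT cells (SE 0.25, 95% interval 2.22 to 3.46, adjusted p = 0.00111 in edgeR's quasi-likelihood test), a fold change of 7.17. Without FT_1, its highest library, the value was 2.62 (SE 0.18, adjusted p = 1.32e-06 in edgeR), or 6.13-fold. limma on log2(FPKM + 1), a scale that understates changes of low genes, gave 1.91 (SE 0.19, adjusted p = 9.82e-04). By size of the log2 fold change IRF7 had rank 337 of the 13482 genes tested (2.5%), so that larger rises were not rare in these cells.

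The last 207 bases of IRF7 overlap PHRF1 on the opposite strand. PHRF1 itself had an FPKM of 9.31, 9.11 and 9.48 in FT cells and 4.95, 5.66 and 5.65 in WT cells. It rose by 0.94 (SE 0.09, adjusted p = 0.00115 in edgeR). Whether the counting used strand is not stated, so reads in the shared stretch cannot be assigned, and the level of IRF7 is uncertain by their number. STAT2 shares 90 bases with IL23A on the opposite strand, and IRF9 shares 335 bases with RNF31 on the same strand. IL23A was not called over all libraries (log2 fold change 0.43, SE 0.15, adjusted p = 0.0676 in edgeR). Without FT_1 it rose by 0.37 (adjusted p = 0.0453 in edgeR). RNF31 rose by 0.67 (SE 0.13, adjusted p = 0.00973 in edgeR), so the small values of STAT2 and IRF9 carry the same doubt.

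The second group is the sensor IFIH1 (ENSBTAG00000008142, chromosome 2, 34111730 to 34166890), which encodes MDA5, a cytoplasmic receptor for long double-stranded RNA and itself induced by interferon. Its FPKM was 0.47, 1.35 and 1.74 in FT_1 to FT_3, against 2.74, 2.41 and 2.13 in WT cells. All FT libraries lay below all WT libraries, and FT_1 was lowest by far. The log2 fold change was -0.87 (SE 0.47, 95% interval -2.02 to 0.29), and edgeR's quasi-likelihood test did not call it (adjusted p = 0.192). Without FT_1 the estimate was smaller and its error smaller still, and IFIH1 fell by 0.48 (SE 0.17, adjusted p = 0.0320 in edgeR).

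Its relatives in the same pathway were not called. DDX58, which encodes the sensor RIG-I, had 2.54, 3.87 and 4.13 in FT cells and 5.05, 5.07 and 4.57 in WT cells. Again no FT value reached the WT range, yet a log2 fold change of -0.32 (SE 0.21) had an adjusted p of 0.275 in edgeR, and -0.12 without FT_1 had 0.351. DHX58, the related regulator LGP2, overlapped between groups (log2 fold change -0.25, SE 0.19), as did MAVS, the adaptor on mitochondria to which these sensors signal (0.33, SE 0.14).

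The third group holds the effectors. MX1 (ENSBTAG00000030913, chromosome 1, 141677687 to 141706496), a dynamin-like GTPase that blocks viral nucleocapsids, had an FPKM of 3.07, 2.86 and 2.38 in FT cells and 4.68, 3.64 and 4.88 in WT cells. The groups did not overlap, and FT_1 sat with its group. In edgeR the log2 fold change was -0.51 (SE 0.17, 95% interval -0.92 to -0.10). With an adjusted p of 0.0563 edgeR's quasi-likelihood test placed it just outside the threshold of 0.05, while DESeq2 (adjusted p = 0.0241) and limma on FPKM (adjusted p = 0.0248) placed it inside. Without FT_1 MX1 fell by 0.58 (SE 0.16, adjusted p = 0.00863 in edgeR), and without WT_2 by 0.63 (adjusted p = 0.0493), while without any other library it was not called (adjusted p from 0.113 to 0.172). Over the 11 fits of all libraries its adjusted p ranged from 0.0241 to 0.126.

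MX2 (ENSBTAG00000008471, chromosome 1, 141621165 to 141658223), the neighbouring paralog on the same strand, was barely expressed. Its FPKM was 0.19, 0 and 0.06 in FT_1 to FT_3 and 0.01, 0.02 and 0 in WT_1 to WT_3, from counts of 52, 0, 14, 4, 4 and 0. The groups overlapped, and only FT_1 and FT_3 had more than 4 counts. MX2 did not pass the filter on low counts and was not tested with the others. In a fit without the filter its log2 fold change was 3.07 (SE 1.76, adjusted p = 0.251 in edgeR), with an interval from -1.20 to 7.33 that leaves its direction undetermined.

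ISG15 (ENSBTAG00000014707, chromosome 16, 51464069 to 51465107) encodes a ubiquitin-like protein that is attached to other proteins during the response. Its FPKM was 0.71, 0 and 0.11 in FT_1 to FT_3 and 0.94, 0.95 and 0.90 in WT cells, from counts of 28, 0 and 4 against 41, 31 and 31. FT_1 lay just under the WT libraries, and FT_2 and FT_3 lay far under them. The count of 0 in FT_2 allows up to 0.0623 CPM (counts scaled by the total count, at 3 counts in the library), where the WT libraries had 0.571 to 0.604. Such limits cover counting error only. Over all libraries the log2 fold change was -1.59 (SE 1.14, 95% interval -4.37 to 1.19, adjusted p = 0.308 in edgeR). Without FT_1 only the WT libraries reach the minimum of the low-count filter, so no test of ISG15 is given for the other 5 libraries.

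The enzymes that attach and remove ISG15 were also measured. HERC5, its ligase, fell by 0.64 in FT cells (SE 0.11, adjusted p = 0.00684 in edgeR), with 3.29, 3.51 and 3.42 against 6.45, 5.99 and 5.35 in FPKM. The activating enzyme UBA7, the conjugating enzyme UBE2L6 and the protease USP18 overlapped between groups, with log2 fold changes of 0.12, 0.19 and -0.19, and edgeR called none of these 3 with or without FT_1. The sign of UBA7 turned with total-count scaling.

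IFI6 (ENSBTAG00000007554, chromosome 2, 125662055 to 125665793), which encodes a small membrane protein that protects cells from apoptosis, had FPKM values of 1.97, 17.82 and 13.86 in FT_1 to FT_3. WT cells had 15.45, 17.68 and 18.93. FT_1, with 111 counts, was far below all other libraries, while FT_2 and FT_3 overlapped with WT cells. The log2 fold change of -0.46 (SE 0.71, 95% interval -2.20 to 1.28, adjusted p = 0.637 in edgeR) became 0.04 (SE 0.14, interval -0.27 to 0.34, adjusted p = 0.822) without FT_1. IFITM1, an interferon-induced transmembrane gene, was likewise lowest in FT_1, with 0.74, 26.27 and 24.86 in FT cells and 42.44, 38.05 and 49.47 in WT cells. The log2 fold change of -1.16 (SE 1.05) was not called, and without FT_1 it fell by 0.59 (SE 0.11, adjusted p = 9.53e-04 in edgeR). In both rows named IFITM3, FT_1 was instead the highest library, at 176.21 (123.59 to 155.28 elsewhere) and 92.76 (76.81 to 89.46). The same held for rows described as IFITM3-like (108, against 55.74 to 87.83) and IFITM1-like (13.5, against 4.37 to 7.25). These IFITM genes are near-identical copies, so the split of reads among them is uncertain. IFITM5, also of this family, was lowest in FT_1, at 1.54 against 1.73 to 2.42.

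**Figure D3:**
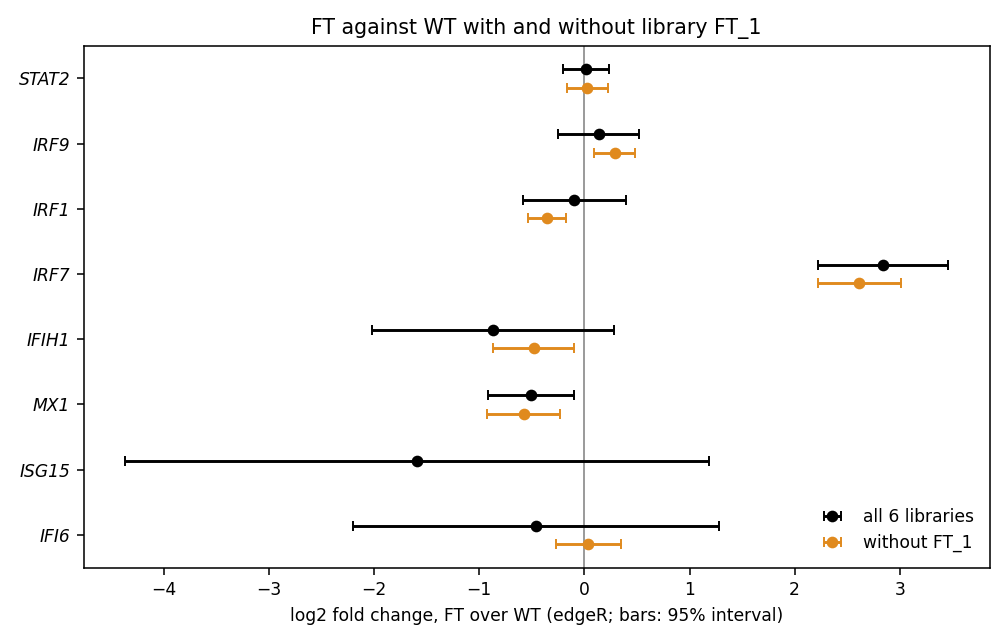
log2 fold change of FT over WT cells for the 8 tested genes, from edgeR on all 6 libraries (black) and without FT_1 (orange), with 95% intervals. The interval of IRF7 starts at 2.22 in both fits, that of STAT2 spans 0 in both, and those of IRF9, IRF1 and IFIH1 leave 0 only without FT_1. ISG15 is drawn for all 6 libraries only.

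In counts, edgeR called 1 of the 8 tested members higher in FT cells, where 20.1% of all tested genes were called higher. It called 0 members lower, where 18.9% of all tested genes were. At an unadjusted p under 0.05 edgeR had 1 lower member, MX1, where 23.9% of all genes were lower, and DESeq2 and limma each called the same gene lower at an adjusted p under 0.05. DESeq2 called 22.7% of its genes lower and limma 29.2%. They called 24.3% and 15.0% higher, with IRF7 as the only member in both. The methods name another threshold, a p under 0.05 with a change of over 1 on the log2 scale in either direction. Whether that p was adjusted is not stated, and it was taken as unadjusted here. At that threshold edgeR had IRF7 higher and 0 members lower, against 10.2% and 8.96% of all genes. Without FT_1 edgeR called 2 of the 7 members other than MX2 and ISG15 higher (30.8% of all genes) and 3 lower (31.9% of all genes). At the threshold of the methods 1 was higher (10.8%) and 0 were lower (12.1%), and at an unadjusted p under 0.05 alone 2 were higher (32.5%) and 3 lower (33.7%). The median log2 fold change of the 8 members was -0.28 beside 0.03 for all genes, and that of the 7 without FT_1 was 0.03 beside -0.02.

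FPKM values did not overlap between groups for 1 member that was higher in FT cells and 3 that were lower. Over all tested genes these shares were 21.8% and 36.9%, so 3 of 8 (37.5%) was close to the background. With CPM scaled by edgeR's TMM factors the counts of members were again 1 and 3, where all genes gave 28.3% and 29.4%. Scaling moved the median of all genes, from 0.03 with TMM factors to -0.12 with total counts only or with FPKM as deposited. An exact permutation test gave p = 0.10 for IRF7, IFIH1, MX1 and ISG15, the smallest two-sided p that 3 libraries against 3 allow.

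The genes whose profile over the 6 libraries was most like that of MX1 were ENTPD7, ZNF32 and ACADSB, with root mean square differences of 0.0632, 0.0771 and 0.0779 in centred log2 CPM. For ISG15 they were TTC39C, LPAR6 and TMEFF1, at 0.298, 0.386 and 0.392. These genes were picked by that distance, so their likeness was set in advance. TTC39C had an FPKM of 2.11, 0.15 and 0.33 in FT_1 to FT_3 against 3.83, 3.42 and 3.76 in WT cells. As with ISG15, its FT_1 value lay below every WT library and above FT_2 and FT_3.

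Around the members, 102 other genes of the interferon pathway were in the table. Of the 90 tested, 13 rose (14.4%, against 20.1% of all genes) and 17 fell (18.9%, the same share as among all genes). Their median log2 fold change was -0.05. Without FT_1, 25 rose (27.8%, against 30.8% of all genes) and 30 fell (33.3%, against 31.9%), with a median of -0.11, and all 13 and all 17 genes called with FT_1 were called in the same direction without it. The 13 include LGALS9, which passed the filter through the FT libraries alone. Leaving out the 3 genes that passed through 1 group alone, 12 of 87 rose (13.8%) and 17 fell (19.5%). At the threshold of the methods 3 were higher (3.3%, against 10.2% of all genes) and 8 lower (8.9%, against 8.96%). The share that fell was thus close to that of all genes and the share that rose lay below it, and what follows describes single genes.

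Of the ligands, 4 were in the table by symbol, 2 rows named IFNB3 and the genes IFNT2 and IFNE. None reached an FPKM above 0.10 in any library, and none could be tested. Rows without a symbol that are described as interferon alpha, beta or omega genes had at most 0.30, apart from an interleukin 6 row with interferon beta 2 as an older name (0.48 in WT_3). Other interferon genes were not analysed here.

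Of the 8 receptor and kinase genes, edgeR called 3 lower (37.5%, against 18.9% of all genes) and 0 higher (against 20.1%). DESeq2 and limma each called 4 lower (against 22.7% and 29.2% of all genes) and 0 higher (against 24.3% and 15.0%). At an unadjusted p under 0.05 edgeR had 4 lower (against 23.9%) and 0 higher (against 25.7%). Without FT_1 edgeR called 5 lower (62.5%, against 31.9% of all genes) and 1 higher (12.5%, against 30.8%). At the threshold of the methods edgeR had 0 lower (against 8.96%) and 0 higher (against 10.2%). Both were also 0 without FT_1 (against 12.1% and 10.8%). IFNGR2, a chain of the interferon gamma receptor, had an FPKM of 71.88, 68.46 and 63.69 in FT cells and 113.12, 106.72 and 111.17 in WT cells. It fell by 0.54 (SE 0.07, adjusted p = 0.00304 in edgeR). The other chain, IFNGR1, fell by 0.40 (SE 0.07, adjusted p = 0.00815), and the kinase JAK2, which is bound to IFNGR2, fell by 0.69 (SE 0.10, adjusted p = 0.00414). The groups did not overlap for any of the 3, and their values without FT_1 were -0.57, -0.40 and -0.77. The type I receptor chains differed between libraries of FT cells. IFNAR1 had 27.81, 14.34 and 13.85 in FT cells and 18.08, 16.47 and 19.96 in WT cells, and IFNAR2 had 14.30, 7.94 and 7.29 against 16.22, 14.95 and 16.01. Neither was called by edgeR, DESeq2 or limma, and without FT_1 IFNAR2 fell by 0.88 (SE 0.09, adjusted p = 1.81e-05 in edgeR). JAK1 (log2 fold change -0.37, SE 0.13), TYK2 (0.17, SE 0.11) and IL10RB (0.41, SE 0.23) were not called by edgeR either. JAK1 was the additional gene called lower by DESeq2 (adjusted p = 0.0320) and limma (adjusted p = 0.0148), and the sign of TYK2 turned when a trend on gene length was removed. Without FT_1, JAK1 fell by 0.25 (adjusted p = 0.00848 in edgeR) and TYK2 rose by 0.27 (adjusted p = 0.00748).

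Among other STAT and IRF genes, IRF2, a factor that competes with IRF1 for the same DNA element, rose by 0.92 (SE 0.08, adjusted p = 9.17e-04 in edgeR), with an FPKM of 19.58, 17.76 and 19.48 against 10.90, 11.32 and 11.24. Its FT libraries were close together and far above WT cells, and the value without FT_1 was 0.91. STAT3 had 47.06, 45.16 and 42.91 in FT cells and 60.99, 57.22 and 64.46 in WT cells, and fell by 0.28 (SE 0.08, adjusted p = 0.0404). Leaving out FT_2, FT_3 or any WT library ended that call, with adjusted p values up to 0.130. IRF3, the partner of IRF7 in switching on interferon beta, had 49.14, 55.08 and 49.38 against 56.09, 61.85 and 56.65, which TMM scaling brought to a log2 fold change of -0.03 (SE 0.09). IRF5 was low in FT_1 alone (0.22, against 2.07 and 2.29 in FT_2 and FT_3 and 1.19 to 1.47 in WT cells). Over all libraries it was not called (log2 fold change 0.38, SE 0.77, adjusted p = 0.724 in edgeR), and its sign turned with limma on FPKM. Without FT_1 it rose by 0.90 (adjusted p = 5.89e-04 in edgeR). IRF4 and IRF8, factors of blood cells, stayed at or below 0.09 and were not tested.

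Of 8 feedback inhibitors, 2 rose (25%) and 1 fell (12.5%), where 20.1% and 18.9% of all genes did. Without FT_1, 5 rose (62.5%, against 30.8%) and 2 fell (25%, against 31.9%). PIAS1, a SUMO ligase that restrains STAT proteins, had an FPKM of 15.37, 16.64 and 16.94 in FT cells and 9.66, 9.19 and 9.56 in WT cells, and rose by 0.94 (SE 0.08, adjusted p = 0.00102 in edgeR). IRF2BP2, a corepressor that binds IRF2, rose by 0.75 (SE 0.11, adjusted p = 0.00398). Without FT_1 the values were 1.0 and 0.64. SOCS1, which blocks the JAK kinases, had 1.62, 0.89 and 0.96 against 3.10, 2.55 and 3.78 and fell by 1.28 (SE 0.35, adjusted p = 0.0320). FT_1 was its highest FT library, and without it SOCS1 fell by 1.59 (adjusted p = 0.00203). Leaving out any other library ended the call of SOCS1, with adjusted p values from 0.0627 to 0.105, as did removing a trend on gene length.

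Of 15 genes of nucleic acid sensing, 3 rose (20%, as among all genes) and 1 fell (6.7%, against 18.9%). Without FT_1 the counts were 6 (40%, against 30.8%) and 3 (20%, against 31.9%). TICAM1, the adaptor TRIF through which TLR3 and TLR4 reach IRF3, had 7.17, 7.73 and 8.69 in FT cells and 4.66, 4.64 and 3.93 in WT cells. It rose by 0.99 (SE 0.13, adjusted p = 0.00304 in edgeR). TRAF3, which links such adaptors to the kinase TBK1, rose by 0.91 (SE 0.18, adjusted p = 0.0106), and TMEM173, the DNA-sensing adaptor STING, rose by 0.70 (SE 0.19, adjusted p = 0.0283). TLR4, the receptor for bacterial lipopolysaccharide, had 0.79, 2.44 and 2.42 against 6.43, 5.38 and 6.68 and fell by 1.54 (SE 0.44, adjusted p = 0.0355). The values without FT_1 were 1.07 for TICAM1, 0.71 for TRAF3, 0.88 for TMEM173 and -1.17 for TLR4. The calls of TMEM173 and TLR4 were lost when any other library was left out, with adjusted p values up to 0.102. TMEM173 was also not called with total-count scaling or by limma on log2(FPKM + 1) (adjusted p = 0.0677).

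**Figure D4:**
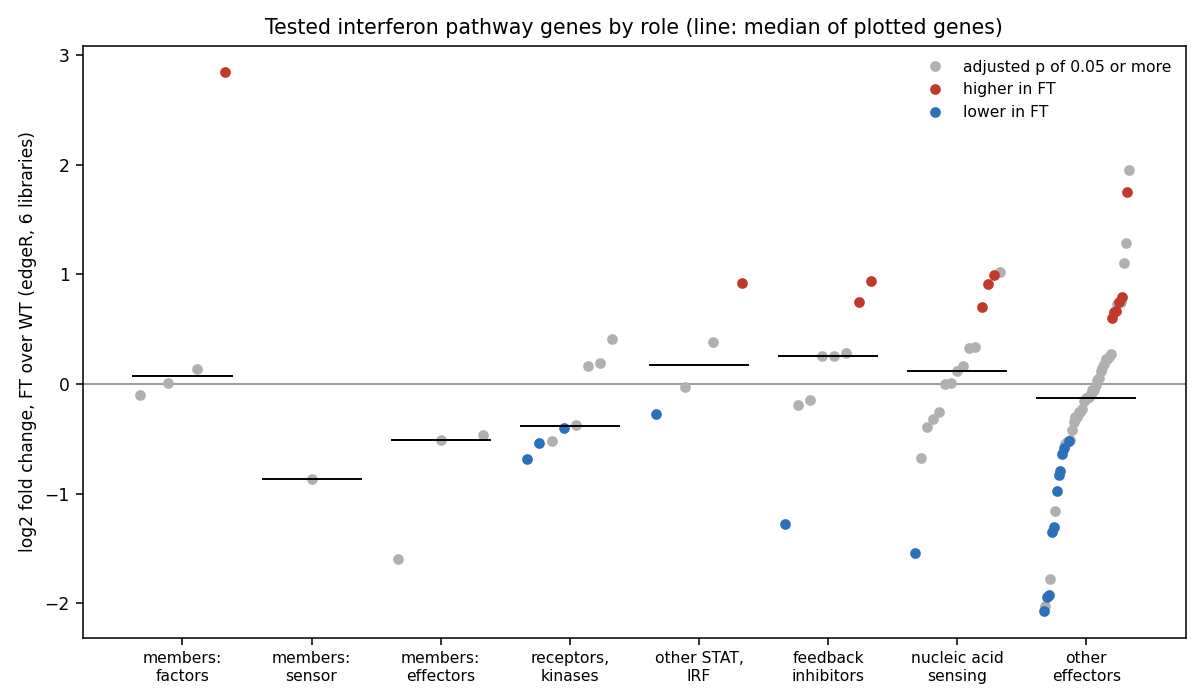
log2 fold change of FT over WT cells (edgeR, 6 libraries) for tested interferon pathway genes by role, with genes called higher in red, called lower in blue and others in grey, and the median of the plotted genes as a line. LGALS9 is not drawn, because it had 0 counts in every WT library. The 53 tested genes in the list of other effectors include 7 called higher (13.2%) and 11 called lower (20.8%), where 20.1% and 18.9% of all genes were.

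Of the 59 other effectors in the table, 53 were tested, 7 rose (13.2%, against 20.1% of all genes) and 11 fell (20.8%, against 18.9%), with a median log2 fold change of -0.13. Without FT_1, 11 rose (20.8%, against 30.8%) and 18 fell (34.0%, against 31.9%), with a median of -0.15. LGALS9 is among those that rose in both counts, and leaving out the 2 genes that passed the filter through 1 group alone in the 6 libraries, 6 of 51 rose (11.8%) and 11 fell (21.6%). IFIT1, which binds viral RNA that lacks host cap marks, fell most clearly. Its FPKM was 27.84, 31.42 and 36.78 in FT cells and 91.15, 81.13 and 101.75 in WT cells, and it fell by 1.35 (SE 0.15, adjusted p = 0.00170 in edgeR). OAS1Y, an oligoadenylate synthetase that makes the activator of RNase L, had 1.13, 1.70 and 2.10 against 7.32, 7.26 and 8.67, and fell by 2.07 (SE 0.27, adjusted p = 0.00274). TRIM38, a ubiquitin ligase, fell by 0.59 (SE 0.08, adjusted p = 0.00278). None of the 3 overlapped between groups, and without FT_1 the values were -1.25, -1.85 and -0.61.

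Of the effectors that rose, SHISA5, which encodes a membrane protein of the endoplasmic reticulum, had an FPKM of 33.92, 36.76 and 33.01 in FT cells and 21.93, 23.08 and 21.73 in WT cells. It rose by 0.79 (SE 0.08, adjusted p = 0.00129 in edgeR). NLRC5, the transactivator of MHC class I genes, rose by 1.75 (SE 0.25, adjusted p = 0.00363) from a low level, with 0.68, 0.88 and 0.61 against 0.21, 0.23 and 0.27. LGALS9, a galectin gene, had 51, 28 and 62 counts in FT cells and 0 in every WT library, so it passed the filter through the FT libraries alone. Set against a floor of 3 counts over the WT group, its level in FT cells was at least 49.7-fold higher, and with LGALS9 at that bound the median of the list was still -0.13. Without FT_1 SHISA5 rose by 0.82 and NLRC5 by 1.81.

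Some families of effectors were also followed whole, after their values had been seen. Of the IFIT genes, IFIT3 had an FPKM of 1.74, 4.56 and 4.56 in FT cells and 10.44, 9.05 and 10.49 in WT cells, and fell by 1.3 (SE 0.38, adjusted p = 0.0387 in edgeR). IFIT2, at no more than 0.59 in any library, had a log2 fold change of -1.77 (SE 0.61, adjusted p = 0.0624 in edgeR and 0.0251 in DESeq2), and without FT_1 it fell by 2.60 (SE 0.50, adjusted p = 0.00128). IFIT5 overlapped between groups (0.23, SE 0.19) and rose by 0.42 without FT_1 (adjusted p = 3.52e-04), so the IFIT genes did not move as a unit. Of the OAS1 copies, OAS1X fell by 1.94 (SE 0.50, adjusted p = 0.0265) and OAS1Z, at no more than 0.32 in FPKM, was not called. The copies are near-identical and may share reads, so their separate values are uncertain. IFI44L had 0.64, 1.25 and 1.36 against 4.30, 5.11 and 4.43 and fell by 1.93 (SE 0.32, adjusted p = 0.00609). Its relative IFI44, at 0.04, 0 and 0.07 against 0.15, 0.23 and 0.21, passed the filter through the WT libraries alone, so no test of it is given. Without FT_1 the values were -0.96 for IFIT3, -1.55 for OAS1X and -1.65 for IFI44L. The call of IFIT3 was lost when any library other than FT_1 was left out (adjusted p up to 0.110), and that of OAS1X without FT_2 or any WT library (up to 0.0869).

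**Figure D5:**
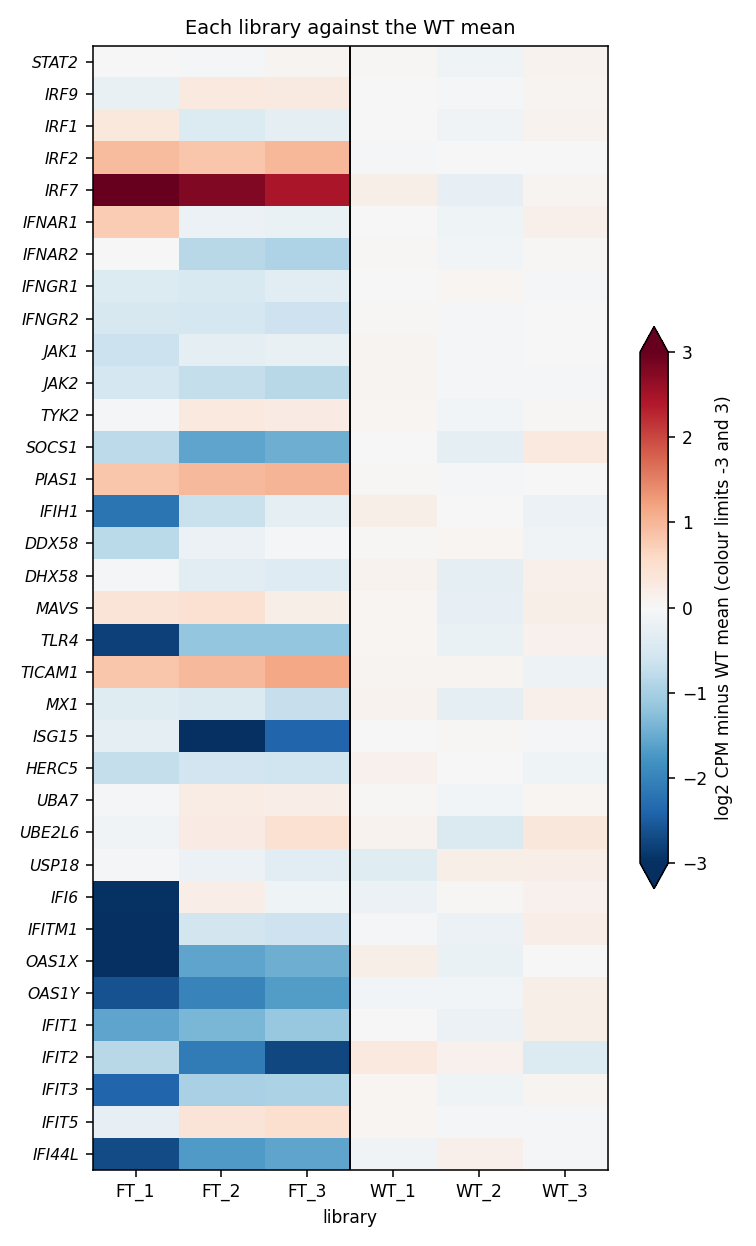
log2 CPM (TMM scaled) of selected interferon genes in each library minus the mean of the WT libraries, with red above and blue below that mean and colours ending at -3 and 3. IRF7 and IRF2 are red in all FT libraries, IFIT1, OAS1Y and IFI44L are blue in all of them, and IFI6 and IFITM1 are deep blue in FT_1.

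FT_1 also held chemokine transcripts that were at or near 0 in the other libraries. The chemokine gene CXCL10, a target of interferon gamma, had an FPKM of 3.36 in FT_1 (385 counts) and 0 in the other 5 libraries. CXCL11 had 0.52 in FT_1 and 0 elsewhere, and CXCL9 had 4.97 in FT_1, 0.03 in FT_2 and 0 elsewhere. These 3 genes, singled out after their values were seen, were not tested.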

How the data were processed

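RNA-seq was done on bEFs of 3 FT and 3 WT fetuses. The submitters' processing notes name HISAT2 2.0, StringTie 1.3.0 and Bowtie 0.12.2, and list mm8, a mouse build, although the table holds cattle gene identifiers. The raw counts per gene were deposited by the authors, 1 column per library. The FPKM values the authors deposited in the same table are scaled by gene length and library total. How reads shared by overlapping genes or copies were counted is not stated, nor is the use of strand. The methods and the sample records name different sequencers and input amounts. Libraries held 48167642 to 69777641 counts, and precision was limited by n = 3 per group and, for MX2 and ISG15, by counts of at most 52.

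The 17663 genes of the table, on chromosomes 1 to 29, were filtered and fitted together with edgeR 4.0.16 in R 4.3.3 (quasi-likelihood test, TMM factors, its filter on low counts with a minimum of 10, two-sided). Of these, 13482 passed the filter and were tested, with Benjamini-Hochberg adjustment over all of them. A gene was called at an adjusted p under 0.05. All adjusted p values are from edgeR unless DESeq2 1.42.0 or limma 3.58.1 is named. ISG15 passed the filter through the WT libraries and FT_1, and LGALS9 through the FT libraries alone. Intervals are 95% intervals of the fit. The limma fit used log2(FPKM + 1) and kept genes averaging 0.5 FPKM or more. CPM for profiles had a prior count of 2. The fits were tested on simulated counts.

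All 9 members were named. Of other pathway genes, those named were the 3 with the smallest p in each direction of each list, all receptor, kinase, STAT, IRF and ligand genes, and the 3 genes with the profile nearest to MX1 and to ISG15. Some genes that this rule picks are not reported here. DDX58, DHX58, MAVS, HERC5, UBA7, UBE2L6, USP18, the IFITM genes, the overlapping neighbours and the genes marked in the text were chosen after their values were seen. Members and lists were chosen with earlier results of these data known. Alternatives covered the test, scaling, filter, unit, pseudocount, gene length, a replicate block, the threshold and leaving out each library.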

Additional observations from a re-analysis of the deposited data

How the results depend on the processing

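IRF7 was called higher in all 11 fits of the 6 libraries (adjusted p at most 0.0138) and with each library left out (at most 0.0109, log2 fold change 2.62 to 3.0). Members called lower numbered 0 with edgeR, 1 with DESeq2, 1 with total counts only, 1 with limma on log2(FPKM + 1), 1 with log2(FPKM + 0.1), and 0 to 4 with 1 library left out, where the 4, without FT_1, include ISG15, which only the WT libraries then carry past the filter. Members called higher numbered 1 to 2 with 1 library left out. Among all genes, 2714 were higher and 2547 lower. With 1 library left out these were 1553 to 4158 and 1547 to 4305, the largest of both without FT_1, and at the threshold of the methods 1378 and 1208. Lower genes also rose in number with the settings named above, to 3061 of 13482 with DESeq2 and 3394 of 13482 with total counts only. With limma they were 3573 of 12247 at a pseudocount of 1 and 3529 of 12247 at 0.1. Of the other pathway genes, 13 were higher (14.4%, against 20.1% of all genes), or 8 with limma at either pseudocount (1 or 0.1; at 1, 10.1% against 15.0%), 3 at the threshold of the methods (3.3%, against 10.2%) and 10 to 25 with 1 library left out. The 17 lower ones (18.9%, as among all genes) were 8 at that threshold (8.9%, against 8.96%) and 10 to 30 with 1 library left out. At that threshold without FT_1, an alternative chosen after seeing the data, the 1 member lower was ISG15, and 6 other genes were higher and 11 lower. The threshold of the methods adds a fold limit and also replaces the adjusted p, and these were not separated for the other pathway genes. For the libraries left out, the test and the scaling the cause was not tested.

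The direction turned for STAT2 (-0.14 with total counts only, -0.13 and -0.14 with limma at pseudocounts of 1 and 0.1, -0.059 with a length trend removed, -0.048 to 0.065 with 1 library left out, below 0 without FT_3 and without WT_2), for IRF9 (-0.019 with total counts only, -0.036 and -0.041 with limma), for IRF1 (-0.35 to 0.035 with 1 library left out, above 0 without FT_2) and for IFI6 (-0.96 to 0.038, above 0 without FT_1), none of them called over all libraries. With the replicate number as a block, 1838 genes were higher and 1741 lower, 1 member was higher and 0 lower, and of the other genes 10 were higher and 12 lower. The deviations of same-numbered libraries from their group mean correlated at -0.001, -0.020 and 0.018, and not every library correlated best with its own number. With few libraries per group and FT_1 far from the other FT libraries, these values cannot decide whether the numbers pair the samples. Depth limits MX2 and ISG15, whose counts did not exceed 52.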

Other observations

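Some rows of the table carry an interferon-related description and no symbol, and were read after their values had been seen. A row described as interferon gamma inducible protein 16, a nuclear DNA sensor in other mammals, had an FPKM of 7.54, 13.76 and 13.33 in FT cells and 24.82, 25.37 and 22.07 in WT cells. The fall was significant, with a log2 fold change of -0.90 (SE 0.25, adjusted p = 0.0317 in edgeR's quasi-likelihood test), and -0.66 without FT_1. A row described as an interferon-induced very large GTPase had 0.01, 0 and 0 in FT cells and 0.52, 0.39 and 0.38 in WT cells, from counts of 4, 0 and 2 against 252, 141 and 145. It passed the filter on low counts through the WT libraries alone, so no test of it is given. A row described as an IRF2 binding protein, a relative of IRF2BP2 by name, had 21.26, 15.76 and 15.81 in FT cells and 9.32, 9.09 and 10.29 in WT cells. It rose by 1.04 (SE 0.14, adjusted p = 0.00299 in edgeR), and by 0.89 without FT_1. Other tested rows of this kind were not called over all libraries. They were described as guanylate-binding protein 1 (-0.69, adjusted p = 0.220 in edgeR) and as IFITM1-like (0.77, 0.145) and IFITM3-like (0.02, 0.949) proteins. Without FT_1 their values were -0.33 (adjusted p = 0.0182 in edgeR), 0.33 (0.211) and -0.31 (0.0101).

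Of the 96 rows that carry the annotation for defense response to virus, 8 of the 9 members among them, 81 were tested. In edgeR 12 rose and 12 fell (14.8% each, against 20.1% and 18.9% of all genes), with a median log2 fold change of -0.03. In edgeR without FT_1, 20 rose (24.7%, against 30.8%) and 33 fell (40.7%, against 31.9%). DESeq2 and limma each called 19 lower over all libraries, where they called 22.7% and 29.2% of all genes lower. Of 99 tested rows annotated with innate immune response, 22 rose and 22 fell in edgeR (22.2% each), and without FT_1 31 and 36 (31.3% and 36.4%). DESeq2 called 29 of the 99 lower (against 22.7% of all genes) and limma called 32 lower (against 29.2%). Of 43 tested rows of the RIG-I-like receptor pathway, 8 rose (18.6%) and 7 fell (16.3%) in edgeR, and without FT_1 10 and 17 (23.3% and 39.5%). Here DESeq2 called 10 of the 43 lower (against 22.7% of all genes) and limma called 13 lower (against 29.2%). Of 10 tested rows of the type I interferon signalling pathway, 1 rose (10%, against 20.1%) and 0 fell (against 18.9%) in edgeR. At its unadjusted p under 0.05, 0 were lower (against 23.9%). DESeq2 and limma also called 0 lower at an adjusted p under 0.05 (against 22.7% and 29.2%). Without FT_1 edgeR had 2 that rose (20%, against 30.8%) and 3 that fell (30%, against 31.9%). The 4 lists share genes. The limma fit kept only rows averaging 0.5 FPKM or more. How many rows of each list it kept is not given here, so its counts have no share. Their counts were not repeated without genes that passed the filter through 1 group alone, as ISG15 did without FT_1.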
